A study of Mus musculus with 12 samples.

Results

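CCT, also called TRiC, is the chaperonin of the cytosol, and its 8 subunit genes Tcp1, Cct2, Cct3, Cct4, Cct5, Cct6a, Cct7 and Cct8 were followed over 4 genotype groups of mouse bone marrow cells. The genes were found as the probe sets whose only gene symbol is one of these names. Each of the 8 had 1 probe set, and they are 8 of the 19935 genes with a value. The set was chosen with results from these arrays already known, among them a higher Cct2 value in CD70TG than in WT. Which other values chose the set is not recorded, so every genotype difference of the 8 genes is given as a description with its standard error and without a p-value. Counts of the 8 past a threshold are printed beside the counts or shares of all genes. In no contrast are they read as a test.

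The cells were CD71+ cells enriched with magnetic beads from crushed hindleg bones. CD71 is the transferrin receptor, which is abundant on red cell precursors. All mice were male, on a C57BL/6 background and 10 to 12 weeks old, with 3 mice and 3 arrays in each group. Wild-type mice (WT) were compared with carriers of a transgene for CD70 (CD70TG), with mice whose interferon-gamma gene is lost (Ifng-/-) and with mice that have both alterations (CD70TG*Ifng-/-). CD70 is the ligand of CD27, a receptor on T cells and other lymphocytes, and interferon-gamma is a cytokine made by activated T and NK cells. The promoter that drives the transgene is not given in the sources used here. The comparisons ask what the transgene does with and without interferon-gamma.

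CCT is a pair of stacked rings, and each ring holds 1 copy of each of the 8 related subunits. An unfolded protein enters the ring, ATP binding closes a built-in lid over it, and it folds inside. Actin and tubulin cannot fold without this complex, and many proteins with WD40 repeats, such as G protein beta subunits and activators of the anaphase-promoting complex, also pass through it. The subunits differ in how they use ATP: those encoded by Cct2, Cct4, Cct5 and Tcp1 form the side of the ring with the tighter ATP binding, and those encoded by Cct3, Cct6a, Cct7 and Cct8 form the other side. Red cell precursors divide repeatedly while they build a membrane skeleton that contains actin.

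The 8 genes lie on 8 different chromosomes: Tcp1 on 17, Cct2 on 10, Cct3 on 3, Cct4 on 11, Cct5 on 15, Cct6a on 5, Cct7 on 6 and Cct8 on 16. RefSeq promoter windows (build GRCm38.p6, 250 bases before to 50 after a start) were matched for 7 of them, in 9 windows. Below are the stretches before the start that no other RefSeq gene covers, for the 4 genes with such a stretch. They are shown as a description of the upstream sequences, and a link between these and the array values was not tested. They are written 5′ to 3′ on the strand of the gene. Capitals mark CTTCCGG or CCGGAAG, the core bound by Ets factors, in Cct2 and Cct8. In Cct3 they mark ATTGG, the reverse complement of the CCAAT box. In Cct5 they mark a match to the tail-to-tail pattern of the heat shock element.
Cct2 (chr10:117063853-117064102, minus strand): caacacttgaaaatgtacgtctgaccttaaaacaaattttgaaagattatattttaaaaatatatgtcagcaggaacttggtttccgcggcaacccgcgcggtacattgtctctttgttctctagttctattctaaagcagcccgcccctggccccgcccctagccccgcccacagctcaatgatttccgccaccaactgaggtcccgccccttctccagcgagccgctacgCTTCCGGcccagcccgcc
Cct3 (chr3:88297000-88297134, plus strand): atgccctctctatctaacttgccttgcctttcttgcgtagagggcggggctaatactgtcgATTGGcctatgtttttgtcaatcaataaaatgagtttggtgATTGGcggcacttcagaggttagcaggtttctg
Cct5 (chr15:31601847-31602096, minus strand): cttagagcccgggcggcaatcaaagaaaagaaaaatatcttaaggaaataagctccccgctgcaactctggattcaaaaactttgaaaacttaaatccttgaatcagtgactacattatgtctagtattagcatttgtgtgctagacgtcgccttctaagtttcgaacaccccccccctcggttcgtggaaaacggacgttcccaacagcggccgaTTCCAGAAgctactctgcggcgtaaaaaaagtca
Cct8 (chr16:87495870-87496072, minus strand): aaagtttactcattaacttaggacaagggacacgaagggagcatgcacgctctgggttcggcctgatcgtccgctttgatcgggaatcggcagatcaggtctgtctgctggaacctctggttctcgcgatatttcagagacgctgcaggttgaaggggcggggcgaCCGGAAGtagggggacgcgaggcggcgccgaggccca

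Both strands of each window were searched, and matches of different patterns could overlap. The shares are per window, so the matches are counted over the 9 windows of the 7 matched genes. GGGCGG, the GC box, was found in 8 of the 9 windows, which included all 7 genes. It was in 35.7% of all 32851 RefSeq promoter windows and 67.2% of the 2824 windows of brightly measured genes, defined below. CCAAT was found in 4 of the 9 windows (Tcp1, Cct3, Cct6a and Cct7), against 37.4% of all windows and 41.0% of those of brightly measured genes. The Ets core CCGGAAG was found in 3 of the 9 windows (Tcp1, Cct2 and Cct8), against 8.86% and 21.4%.

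The heat shock element pattern TTCNNGAA was found in 2 of the 9 windows (Cct5 and Cct6a), against 8.52% of all windows and 7.86% of those of brightly measured genes. Its head-to-head form GAANNTTC was found in 1 of the 9 windows (Cct2), against 7.86% and 5.91%. TGACGT, the core of the cAMP response element, was found in 1 of the 9 windows (Cct6a), against 7.51% and 14.5%. CACGTG, the E-box that Myc and related factors bind, was found in 0 of the 9 windows, against 7.15% and 10.9%. The GC content of the 9 windows ran from 47.3% to 67.7% with a median of 60.3%, close to the median of 61.7% for brightly measured genes. These matches describe letters in a window and are not evidence of binding.

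A deposited value is a log2 signal set relative to the probe set's own median over the 12 arrays. A value of 0 is therefore that gene's middle array, values of different genes cannot be ranked by level, and a difference of 1 would be a doubling. The step to which the numbers were rounded still shows whether a probe set's original log2 level was at least 8 on an array. A probe set counted as brighter only if this held on every array with a usable value, and a gene only if all its probe sets did. A gene below 8 on some arrays can therefore fall in the dimmer class whatever its level on the others. All 8 subunits were in that brighter class, which held 2747 of the 19935 genes (13.8%), called brightly measured here. Their medians by array ran from -0.144 to -0.062 in WT and from -0.035 to 0.140 in CD70TG, so bright genes as a class were lower in WT than in CD70TG, while the medians of dimmer genes stayed between -0.027 and 0.034. For that reason each difference of the 8 genes is also given after centring each array within its brightness class. Values, orders and overlaps of single arrays are for the deposited scaling unless said otherwise.

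Tests on other genes are from limma, a linear model that shares the spread over all 12 arrays and adjusts p over all 19935 genes (Benjamini-Hochberg). At an unadjusted p under 0.05 there were 5237 genes in CD70TG against WT. There were 2422 in CD70TG*Ifng-/- against Ifng-/- and 2759 in Ifng-/- against WT. Unadjusted counts of the lists below stand beside these. In the label checks, Ifng differed by -0.10 ± 0.09 (SE, limma adjusted p = 0.632) between Ifng-/- and WT, with overlapping values (n = 3 in each group). Cd70 differed by 0.26 ± 0.12 (limma adjusted p = 0.18) between CD70TG and WT. Between CD70TG*Ifng-/- and Ifng-/- it differed by 0.39 ± 0.12 (limma adjusted p = 0.135). Neither gene passed. Cd70 was higher without overlap in both comparisons, against 17.6% and 9.32% of all genes higher without overlap. Its values ran from -0.379 to -0.115 in WT and from -0.011 to 0.053 in CD70TG. Of 12 red cell precursor markers, 9 were measured, and all 9 were in the brighter class. Markers of other cells were also present and moved with the transgene, as given beside the results they move with.

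Among the subunits of the side with tighter ATP binding, Cct2 was at -0.38, -0.16 and -0.22 in WT and at 0.19, 0.19 and 0.48 in CD70TG. In Ifng-/- its values were -0.14, 0.00 and 0.01, and in CD70TG*Ifng-/- they were 0.12, -0.07 and 0.00. The 3 CD70TG arrays were the highest of the 12 and the 3 WT arrays the lowest, with the other groups between them and overlapping each other. Cct2 was 0.54 ± 0.10 (SE) higher in CD70TG than in WT, a 1.45-fold difference, and 0.39 higher after centring within the brightness class.

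Tcp1, the subunit after which the family is named, was at -0.33, -0.19 and -0.31 in WT and at 0.22, 0.17 and 0.16 in CD70TG. It was at -0.16, 0.11 and -0.01 in Ifng-/- and at 0.09, -0.06 and 0.01 in CD70TG*Ifng-/-. The order of the groups was as for Cct2, and the CD70TG arrays lay close together (SD 0.03, n = 3). The difference between CD70TG and WT was 0.46 ± 0.08, or 1.37-fold, and 0.31 after centring within the class.

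Cct5 was at -0.29, -0.19 and -0.25 in WT, at 0.16, 0.19 and 0.24 in CD70TG, at -0.28, 0.13 and 0.01 in Ifng-/- and at 0.22, -0.05 and -0.01 in CD70TG*Ifng-/-. Array 1 of Ifng-/- lay among the WT arrays and array 1 of CD70TG*Ifng-/- among the CD70TG arrays, so each middle group overlapped a neighbour on its outer side. CD70TG was 0.44 ± 0.10 above WT (1.36-fold), and 0.29 above it after centring within the class.

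Cct4 moved least on this side of the ring. It was at -0.28, -0.11 and -0.08 in WT and at 0.18, 0.04 and 0.17 in CD70TG. It was at -0.16, 0.03 and 0.06 in Ifng-/- and at 0.11, -0.13 and -0.03 in CD70TG*Ifng-/-. WT and CD70TG did not overlap, but every pair of neighbouring groups in the order did. The difference between CD70TG and WT was 0.28 ± 0.09, or 1.22-fold, and 0.14 ± 0.08 after centring within the class.

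On the other side of the ring, Cct3 had the widest spread, with a range of 1.06 over the 12 arrays. It was at -0.62, -0.28 and -0.25 in WT, at 0.18, 0.18 and 0.44 in CD70TG, at -0.23, 0.03 and 0.08 in Ifng-/- and at 0.19, -0.35 and -0.03 in CD70TG*Ifng-/-. Array 2 of CD70TG*Ifng-/- lay below 2 of the 3 WT arrays, and the means of the middle groups stood in the opposite order from the other 7 genes. CD70TG was 0.65 ± 0.14 above WT (1.57-fold), and 0.5 above it after centring within the class.

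Cct6a was at -0.48, -0.16 and -0.42 in WT and at 0.18, 0.23 and 0.58 in CD70TG. It was at -0.26, -0.03 and 0.03 in Ifng-/- and at 0.14, -0.04 and 0.10 in CD70TG*Ifng-/-. The CD70TG arrays were above all others, and array 3 of CD70TG stood well above the other 2. The difference between CD70TG and WT, 0.68 ± 0.12, was the largest of the 8 genes at 1.60-fold, and it was 0.53 after centring within the class.

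Cct7 had the narrowest range, 0.35 over the 12 arrays. It was at -0.18, -0.15 and -0.22 in WT, at 0.13, 0.08 and 0.08 in CD70TG, at -0.11, 0.07 and 0.01 in Ifng-/- and at 0.08, -0.03 and -0.01 in CD70TG*Ifng-/-. The WT arrays were the 3 lowest and the CD70TG arrays the 3 highest. CD70TG was 0.29 ± 0.07 above WT (1.22-fold), and 0.14 ± 0.06 above it after centring within the class.

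Cct8 was at -0.17, -0.15 and -0.34 in WT and at 0.03, 0.02 and 0.20 in CD70TG. It was at -0.25, -0.02 and -0.10 in Ifng-/- and at 0.06, 0.04 and 0.07 in CD70TG*Ifng-/-. Here the 2 transgenic groups overlapped, and both lay above all 6 arrays of the groups without the transgene. After centring within the class this did not hold, with CD70TG 1 at -0.075 and WT 1 at -0.053. The difference between CD70TG and WT was 0.31 ± 0.08, or 1.24-fold, and 0.16 after centring within the class.

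**Figure D1:**
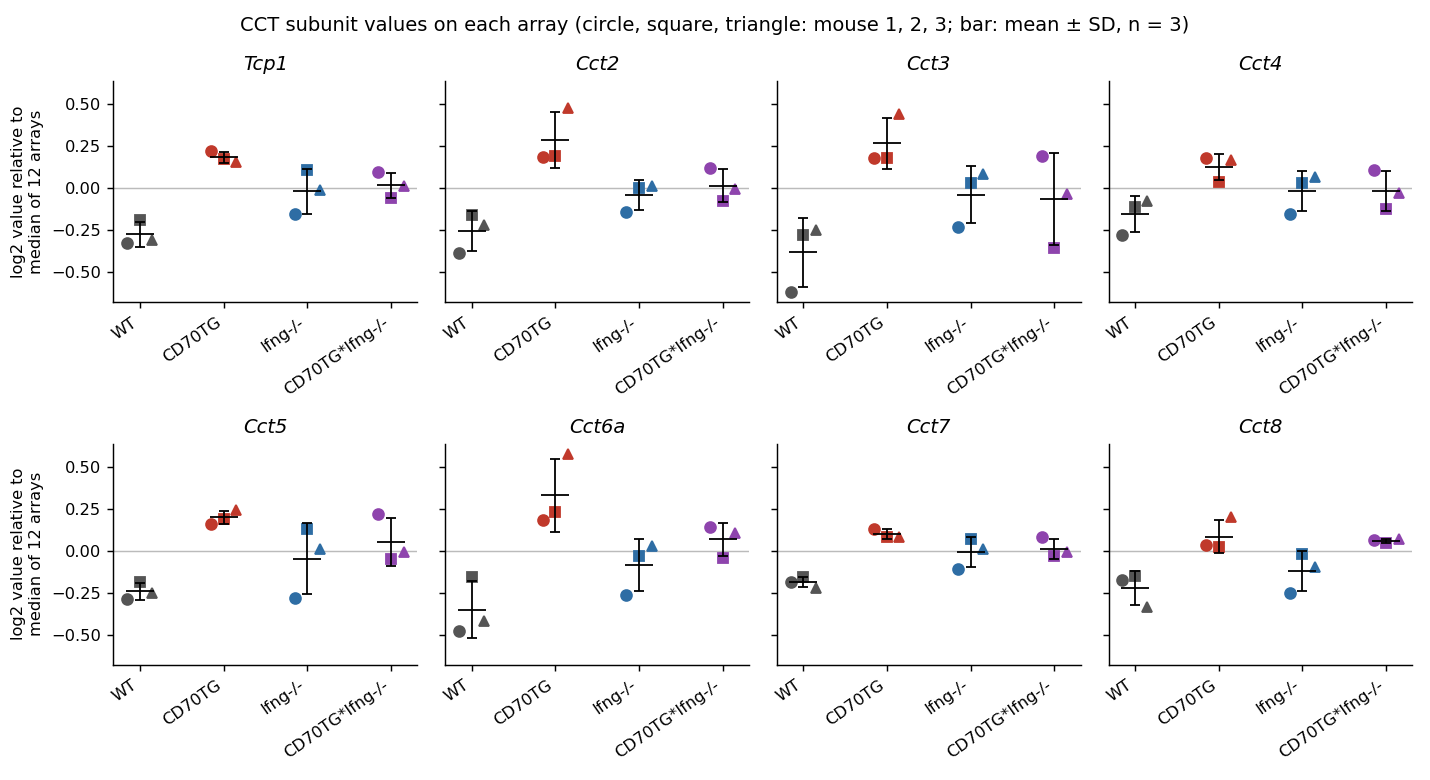
Values of the 8 CCT subunit genes on each of the 12 arrays, as log2 relative to the gene's median array; symbols are mice and bars are group means with SD (n = 3). In each panel the WT arrays are all below the CD70TG arrays, and the Ifng-/- and CD70TG*Ifng-/- arrays lie mostly between them, except that in Cct8 the CD70TG*Ifng-/- arrays reach the level of CD70TG.

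With the deposited scaling WT had the lowest group mean and CD70TG the highest in all 8 genes. In 7 of them Ifng-/- came next above WT and CD70TG*Ifng-/- next below CD70TG, and in Cct3 these middle groups were exchanged. WT and Ifng-/- did not overlap as neighbours in that order in Tcp1, Cct2 and Cct7. The highest group did not overlap its neighbour in Tcp1, Cct2, Cct3, Cct6a and Cct7. In Cct3 that neighbour was Ifng-/-, and CD70TG did overlap CD70TG*Ifng-/- (0.177 on CD70TG 1, 0.19 on CD70TG*Ifng-/- 1). The middle groups overlapped in every gene but Cct8. After centring within the class CD70TG overlapped a middle group in Cct3 (0.067 on CD70TG 1, 0.098 on Ifng-/- 3). The same held for Cct6a (0.071 on CD70TG 1, 0.087 on CD70TG*Ifng-/- 3) and Cct7 (0.021 on CD70TG 2, 0.024 on Ifng-/- 3). Cct8 was then 0.01 higher in CD70TG*Ifng-/- than in CD70TG and had no difference between Ifng-/- and WT. In Cct4 the middle groups were then exchanged, with CD70TG*Ifng-/- minus Ifng-/- at -0.01.

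The mean of the 8 genes was -0.26 ± 0.08 in WT, -0.05 ± 0.13 in Ifng-/-, 0.02 ± 0.11 in CD70TG*Ifng-/- and 0.20 ± 0.08 in CD70TG (SD, n = 3 each). With the deposited scaling all 8 genes were below 0 on every WT array and above 0 on every CD70TG array. Array 1 of Ifng-/- also had all 8 below 0 and array 1 of CD70TG*Ifng-/- all 8 above 0. Medians of bright genes differed in the same direction on these arrays. They were -0.079 on Ifng-/- 1 against 0.108 and -0.033 on its group mates. On CD70TG*Ifng-/- 1 the median was 0.076, against -0.01 and 0.028 on its mates. The part of this shift in the subunit values was not tested. After centring within the class Cct4 was at 0.02 on WT 3 and at -0.025 on CD70TG 2. Cct8 was then at -0.075 on CD70TG 1, at -0.043 on CD70TG 2 and at -0.001 on CD70TG*Ifng-/- 1.

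The subunits spread more widely on some arrays than on others. On CD70TG 3 they ran from 0.084 (Cct7) to 0.576 (Cct6a), a width of 0.492. On WT 1 the width was 0.445, with Cct3 lowest and Cct8 highest, and on CD70TG*Ifng-/- 2 it was 0.399. On the other 9 arrays the width lay between 0.136 and 0.336.

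**Figure D2:**
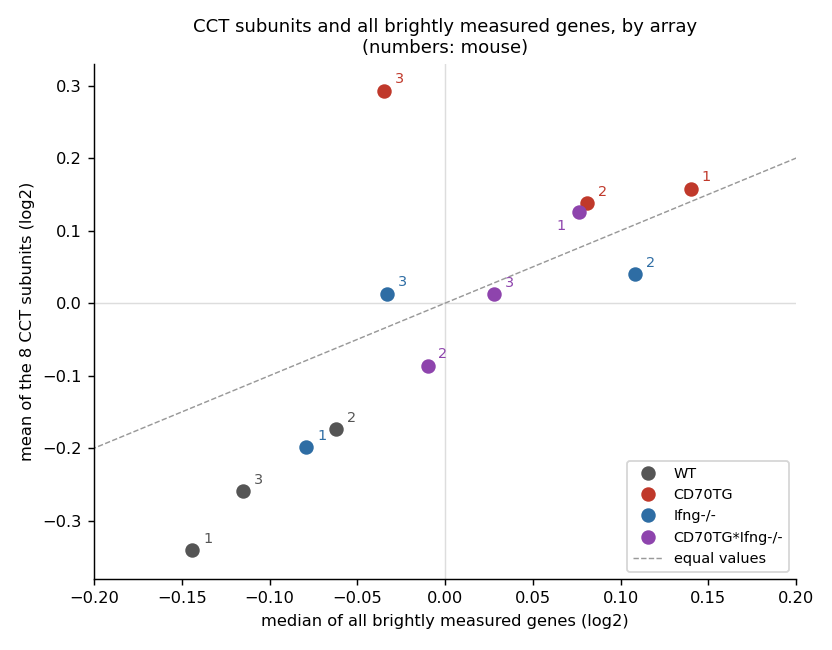
Mean of the 8 CCT subunits against the median of all brightly measured genes on each array, both in log2. Brightly measured means an original log2 level of at least 8 on every array with a usable value. The dashed line marks equal values. The WT arrays are low on both axes, and CD70TG 3 has the highest subunit mean (0.293) with a bright-gene median of -0.035.

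With interferon-gamma present, the transgene group was higher in all 8 subunits, by 0.28 to 0.68 and by 0.45 ± 0.08 (SE) for their mean, a 1.37-fold difference. The median over the 8 was 0.45, against -0.02 over all genes and 0.19 over brightly measured genes. The mean was 0.31 after centring within the class, where brightly measured genes had a median of 0.04. In the limma fit over all genes, 7 of the 8 (all but Cct4) were past an adjusted p of 0.05, against 8.23% of all genes called higher, 2.7% called lower and 22.4% of brightly measured genes called higher. After centring within the class 5 of the 8 were past it (Tcp1, Cct2, Cct3, Cct5 and Cct6a), against 6.0% of all genes called higher. Values of all 8 did not overlap between the groups, against 17.6% of all genes and 43.5% of brightly measured genes that were higher without overlap. After centring within the class Cct4 and Cct8 overlapped. Since the set was chosen with results of these arrays known, nothing is read from these counts or from those of the other contrasts.

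The count depended on single arrays: without WT 1 it was 3 (Tcp1, Cct2 and Cct6a), and without WT 3, CD70TG 1 or CD70TG 2 it was 5. The mean difference of the 8 genes stayed between 0.41 and 0.50 with any 1 array left out.

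Without interferon-gamma the same transgene gave a small difference. The 8 subunits differed by -0.03 to 0.18 between CD70TG*Ifng-/- and Ifng-/-, and their mean by 0.07 ± 0.08, against medians of 0.04 over all genes and 0.04 over brightly measured genes. Cct8 was highest at 0.18 ± 0.08 and Cct6a next at 0.15 ± 0.12, while Cct3 was at -0.03 ± 0.14 and Cct4 at 0.00 ± 0.09. None of the 8 passed in limma, against 2.5% of all genes in either direction. At an unadjusted p under 0.05 there was 1 of the 8, against 2422 of all 19935 genes. Cct8 was the 1 gene of the 8 without overlap between these groups, against 9.32% of all genes higher without overlap.

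The loss of interferon-gamma went with opposite differences in the groups without and with the transgene. Without the transgene all 8 subunits were higher in Ifng-/- than in WT, by 0.10 (Cct8) to 0.34 (Cct3), with a mean of 0.21 ± 0.08, and this mean was 0.11 after centring within the class, where Cct8 had no difference. None passed in limma, against 0.00502% of all genes, which is 1 gene (Pawr, named after its value was seen). At an unadjusted p under 0.05 there were 5 of the 8, against 2759 of all 19935 genes. Tcp1, Cct2, Cct3 and Cct7 were higher without overlap, against 9.43% of all genes. After centring within the class Cct3 overlapped (-0.152 on WT 3, -0.17 on Ifng-/- 1).

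With the transgene all 8 were lower in CD70TG*Ifng-/- than in CD70TG, from -0.33 (Cct3) to -0.03 (Cct8), with a mean of -0.18 ± 0.08. After centring within the class the mean was -0.15, and Cct8 stood at 0.01. None passed in limma, against 1.41% of all genes. At an unadjusted p under 0.05 there were 3 of the 8, against 2239 of all 19935 genes. Tcp1, Cct2, Cct6a and Cct7 were lower without overlap, against 8.27% of all genes. After centring within the class Cct6a overlapped (0.071 on CD70TG 1, 0.087 on CD70TG*Ifng-/- 3). These comparisons share groups with the transgene comparisons, so they are not separate evidence.

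The difference between the transgene differences with and without interferon-gamma (the interaction) was 0.39 ± 0.12 for the mean of the 8 genes and ran from 0.12 (Cct8) to 0.68 (Cct3). After centring within the class the mean was 0.26, and Cct8 was at -0.01. None of the 8 passed in limma, against 1.89% of all genes. At an unadjusted p under 0.05 there were 7 of the 8, against 4041 of all 19935 genes.

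**Figure D3:**
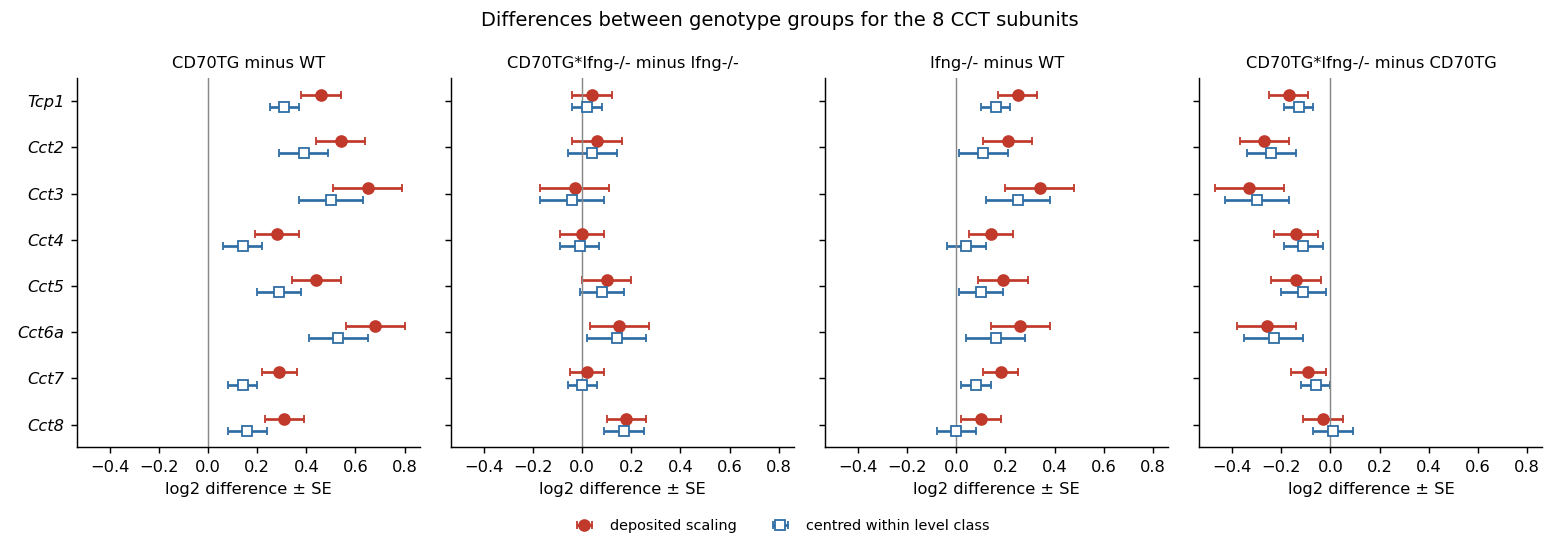
Differences between genotype groups for each CCT subunit in log2 with SE, from limma over 12 arrays; filled circles use the deposited scaling and open squares arrays centred within the brightness class. CD70TG minus WT is 0.28 to 0.68 with the deposited scaling, and CD70TG*Ifng-/- minus Ifng-/- is -0.03 to 0.18.

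Other cells in the enriched fraction moved with the transgene. The mean level of 14 macrophage markers ran from 0.81 to 1.5 in WT, from 1.23 to 1.6 in Ifng-/-, from -1.06 to -0.78 in CD70TG and from -1.46 to -1.39 in CD70TG*Ifng-/-. All 14 fell with the transgene in both backgrounds, with median differences of -1.87 with interferon-gamma and -2.84 without it.

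Of 9 measured B cell markers, 8 fell in CD70TG against WT (median -0.84) and 1 fell in CD70TG*Ifng-/- against Ifng-/- (median -0.33). Their mean level ran from 0.13 to 0.52 in WT, from -0.57 to -0.47 in CD70TG, from 0.01 to 0.38 in Ifng-/- and from -0.13 to -0.03 in CD70TG*Ifng-/-. Of 12 neutrophil markers 3 fell and 1 rose in CD70TG against WT, with a median of -1.24 and all 12 at an unadjusted p under 0.05 in limma, and the median was -0.90 in CD70TG*Ifng-/- against Ifng-/-. Of 8 eosinophil and basophil markers 3 fell (median -0.59). Of 10 T and NK cell markers 1 fell, of 6 dendritic cell markers 2 fell, and of 4 measured megakaryocyte markers none passed (1 at an unadjusted p under 0.05 in limma). The median of the red cell precursor markers differed by 0.06 in that contrast, and 1 of 9 fell (Alas2, the first enzyme of haem synthesis in these cells, named after its value was seen). Their median was -0.09 after centring within the class, where 3 of the 9 passed as lower. Values are zero-centred, so no marker can be called absent. In bulk cells, a change in the mix of cells and a change of RNA per cell cannot be told apart, and the part of these markers in the subunit differences was not tested.

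The subunits resembled each other over the 12 arrays. Pearson's r over the 28 pairs ran from 0.65 to 0.99 with a median of 0.89, which includes the group differences and the shared array scaling. With group means removed it ran from 0.30 to 0.94 with a median of 0.66. Tcp1 then was most like Cct7 (0.94) and Cct5 (0.88), and Cct5 and Cct7 were at 0.90. Cct2 was most like Cct6a (0.93) and Cct3 (0.89), and Cct3 was at 0.90 with Cct4. Cct8 was least like the rest, at 0.30 with Cct4 and 0.34 with Cct3, and Cct2 with Cct7 was at 0.41. Apart from Tcp1 with Cct5, the pairs at 0.88 or above joined subunits of opposite sides of the ring. Removing group means does not remove the array scaling: medians of bright genes were -0.079, 0.108 and -0.033 on the 3 Ifng-/- arrays. The pairwise r is given neither after centring within the class nor beside pairs of other genes. All points share 12 arrays, so r is a description.

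**Figure D4:**
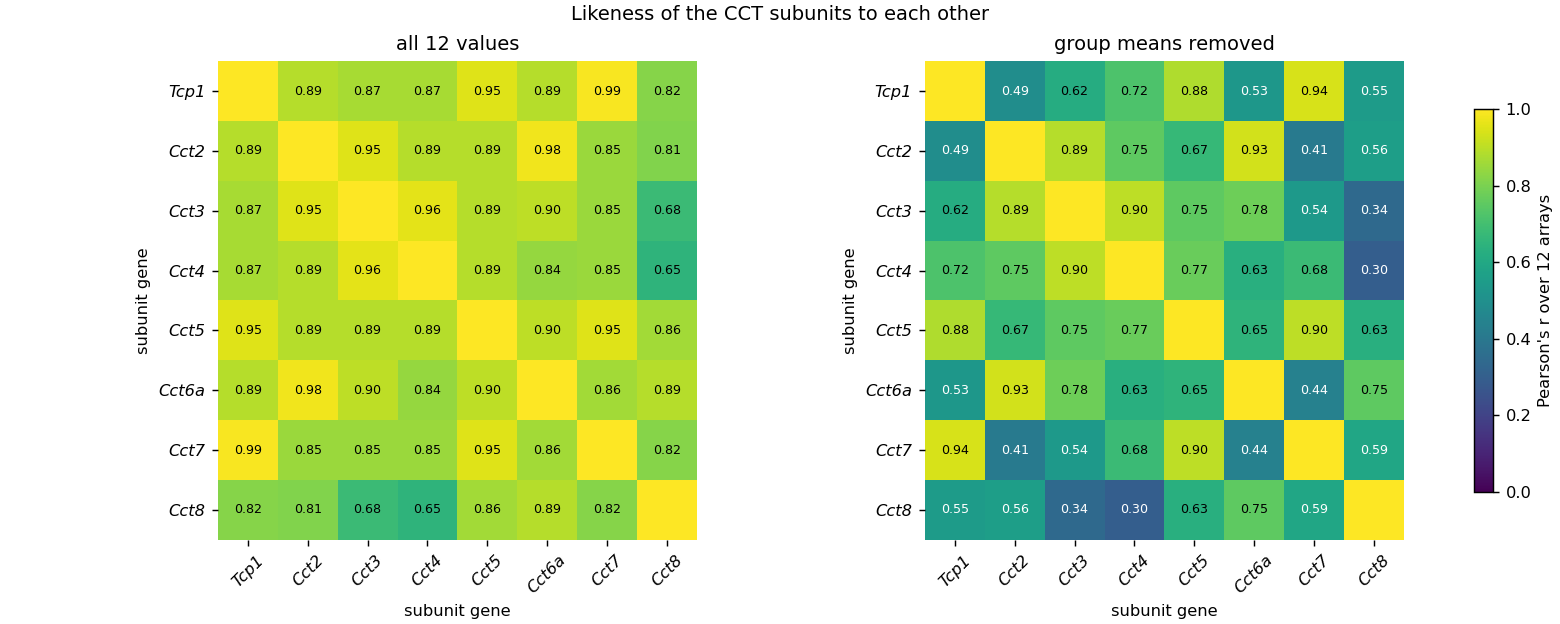
Pearson's r between CCT subunits over 12 arrays, with all values (left) and with group means removed (right); colour runs from 0 to 1. The lowest value on the right is 0.30, between Cct4 and Cct8, and the highest is 0.94, between Tcp1 and Cct7.

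The genes most like the mean of the 8 subunits over the 12 arrays were Samm50, Mettl16 and Cdk4 (r = 0.98 each), then Dnaja3, Slc25a3, Phb2, Nhp2 and Rars (0.97 each). Samm50 inserts proteins into the outer mitochondrial membrane, Dnaja3 is a mitochondrial Hsp40, Slc25a3 carries phosphate into mitochondria and Phb2 is a prohibitin of the inner membrane. Cdk4 is a cyclin D-dependent kinase, Nhp2 a component of H/ACA ribonucleoproteins and Rars the arginyl-tRNA synthetase. With group means removed the leading genes were Rpl7l1, Gatm, Eif4a1 and Samm50 (0.95 each), then Rtcb, Dnaja3, Mettl16 and Tma16 (0.94 each). With group means kept, the median r was 0.54 for other brightly measured genes (quartiles 0.20 and 0.71, 2739 genes) and -0.08 for all other genes. After centring within the class r for the first 8 genes was between 0.86 (Mettl16) and 0.96 (Rars).

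The partners and clients of the complex are given from the same fit with their p-values. These lists too were drawn up with earlier results of these arrays known, so the p-values are not independent evidence about a list, and each count stands beside the 8.23% of all genes and 22.4% of brightly measured genes called higher. In CD70TG against WT, 2 of 6 prefoldin subunits, which hand unfolded actin and tubulin to CCT, rose, and none fell. Pfdn4 rose by 0.37 ± 0.11 (limma adjusted p = 0.0455) and Pfdn6 by 0.35 ± 0.09 (adjusted p = 0.0223). Pfdn6 did not pass after centring within the class (adjusted p = 0.139). With single arrays left out in turn, Pfdn4 lost its call in 8 of 12 fits (limma adjusted p 0.0287 to 0.165) and Pfdn6 in 4 of 12 (without WT 2, WT 3, CD70TG 1 or CD70TG 2, 0.0138 to 0.103). The prefoldin median was 0.19, and Pfdn2 was at 0.24 ± 0.09 and Pfdn5 at 0.10 ± 0.09.

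The cofactors that bind CCT did not pass the test. Of the 4 measured phosducin-like and related genes none passed (0 at an unadjusted p under 0.05), with a median of 0.07, and Txndc9 was at 0.19 ± 0.10 and Pdcl3 at 0.16 ± 0.10. The 6 cofactors that assemble tubulin dimers after CCT were all above 0, with a median of 0.25, and none passed (4 at an unadjusted p under 0.05). Tbce, which acts on alpha-tubulin, was at 0.31 ± 0.11 (adjusted p = 0.0818).

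The main clients did not pass either. Of 11 measured actins and tubulins none passed in limma (3 at an unadjusted p under 0.05), and their median was 0.12, or 0.04 after centring within the class. Tubg1, the gamma-tubulin of spindle poles, was at 0.33 ± 0.12 (adjusted p = 0.11) and Tuba4a at 0.22 ± 0.08 (adjusted p = 0.1). Actg1, Tuba1b, Tuba1c and Tubb4b are not analysed here.

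Of 13 other clients 3 rose and none fell, a share close to the 22.4% of brightly measured genes called higher (8 of the 13 are in that class). The histone deacetylase Hdac3 rose by 0.48 ± 0.09 (limma adjusted p = 0.00402), the mTOR-complex subunit Mlst8 by 0.41 ± 0.09 (adjusted p = 0.0108) and the G protein beta subunit Gnb1 by 0.30 ± 0.08 (adjusted p = 0.0347). Gnb1 did not pass after centring within the class (adjusted p = 0.295), nor without any of WT 1, WT 3 and the 3 CD70TG arrays. Mlst8 did not pass without WT 1 or CD70TG 1 (limma adjusted p up to 0.0597), and Hdac3 passed with any array left out (up to 0.0212). After centring within the class 2 of the 13 passed as higher and 1 as lower, Fzr1, an activator of the anaphase-promoting complex (-0.29, limma adjusted p = 0.0178, against -0.14 with the deposited scaling; named after its value was seen). The median of the 13 was 0.26, against 0.45 for the subunits.

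Among other chaperonins, the mitochondrial pair had the largest differences. Hspd1 (Hsp60) was at -0.34, -0.12 and -0.51 in WT and at 0.23, 0.27 and 0.94 in CD70TG. It rose by 0.80 ± 0.15 (limma adjusted p = 0.00491). Its lid, Hspe1 (Hsp10), rose by 0.73 ± 0.11 (adjusted p = 0.00139). On CD70TG 3, Hspd1 stood far above its group mates, as did Cct6a among the subunits. The testis-type paralog Cct6b was at 0.01, and Cct8l1 at 0.02, both named after their values were seen. The other genes of the list, among them Bbs12 (0.17 ± 0.08) and Mkks (0.13 ± 0.09), did not pass, and the median of the 7 was 0.13.

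Of 9 measured genes of the cytosolic Hsp70 and Hsp90 system, which passes some clients on to CCT, 7 rose in CD70TG against WT and none fell, with a median of 0.44. Hsph1 (Hsp110) was at -1.20, -0.78 and -0.94 in WT and at -0.02, 0.17 and 0.25 in CD70TG. It rose by 1.10 ± 0.16 (limma adjusted p = 9.60e-04), and by 1.81 after quantile normalization. The Hsp70-Hsp90 adaptor Stip1 rose by 0.52 ± 0.11 (adjusted p = 0.00834), Hspa4 by 0.45 ± 0.09 (adjusted p = 0.00566) and the co-chaperone Bag3 by 0.37 ± 0.08 (adjusted p = 0.0144). After centring within the class 4 of the 9 passed. Bag3 lost its call without WT 1, CD70TG 1 or CD70TG 2 (limma adjusted p up to 0.0736), and Hsph1, Hspa4 and Stip1 passed with any array left out.

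In CD70TG*Ifng-/- against Ifng-/- none of the genes in these partner, client and chaperone lists passed. At an unadjusted p under 0.05 in limma there were 3 of 6 prefoldin genes and 3 of 13 other clients. The Hsp70 and Hsp90 list had 3 of 9 and the tubulin cofactors 1 of 6. Actins and tubulins had 1 of 11, CCT cofactors 0 of 4 and other chaperonins 0 of 7. The Hsp70 and Hsp90 median was -0.07 there and the prefoldin median 0.14. Pfdn4 was at 0.27 ± 0.11 there and Pfdn6 at 0.21 ± 0.09. Their interactions did not pass (0.10 ± 0.16 and 0.14 ± 0.12, limma adjusted p = 0.721 and 0.513). The interaction passed for Hsph1 (1.46 ± 0.23, limma adjusted p = 0.00727), Stip1 (0.81 ± 0.15, adjusted p = 0.0201) and Hspe1 (0.77 ± 0.16, adjusted p = 0.0273), and also for Hspa8, the constitutive Hsc70, named after its value was seen (0.82 ± 0.18, adjusted p = 0.0369, and 0.062 after centring within the class). The interaction of Hspe1 did not pass after quantile normalization (limma adjusted p = 0.0651). With single arrays left out the interaction of Hsph1 passed in all 12 fits, that of Stip1 did not pass without WT 1 or CD70TG 2, and that of Hspe1 did not pass in 7 of 12. In Ifng-/- against WT the median of the Hsp70 and Hsp90 list was 0.48, above its 0.44 in CD70TG against WT. None of its genes passed in limma there (8 of 9 at an unadjusted p under 0.05). The subunits differed there by a median of 0.20. WT is the control of both comparisons, and the WT arrays were the 3 lowest for Hsph1, as they were for Tcp1, Cct2 and Cct7.

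Proliferation genes were listed because CCT levels are known to follow cell growth. All 16 measured genes were above 0 in CD70TG against WT, with a median of 0.16, and none passed in limma (4 at an unadjusted p under 0.05). The median was 0.02 after centring within the class. In CD70TG*Ifng-/- against Ifng-/- their median was 0.13, against 0.05 for the subunits.

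**Figure D5:**
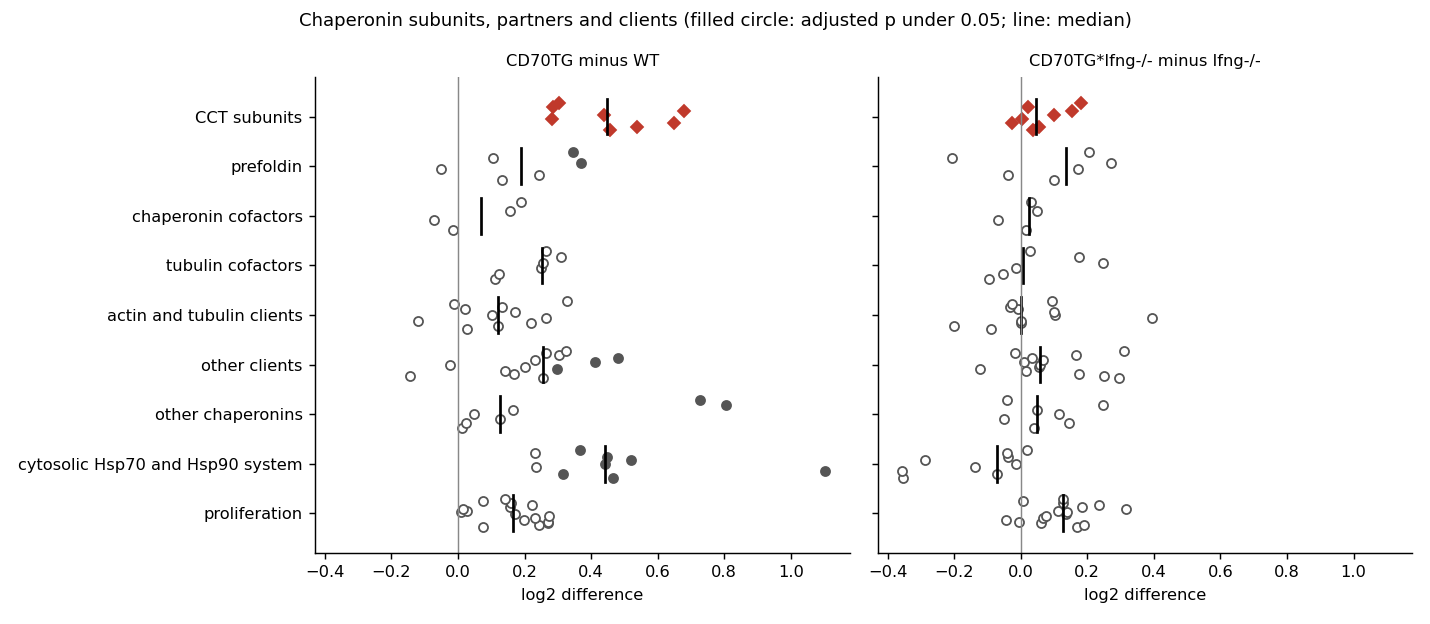
Log2 differences of the CCT subunits (diamonds) and of related lists (circles) with the transgene, with interferon-gamma (left) and without it (right); filled circles passed an adjusted p of 0.05 and vertical lines are list medians. On the left the medians are 0.45 for the subunits and 0.44 for the Hsp70 and Hsp90 system, and on the right they are 0.05 and -0.07.

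Cct2 and Ifng both lie on chromosome 10. Of 14 protein-coding genes between them in the RefSeq order, 12 were measured, and in Ifng-/- against WT they differed by -0.06 to 0.27 with a median of 0.10. None of them passed in limma there. The 1 gene of all 19935 that passed in that contrast, Pawr, is not among these 14. Genes outside this stretch, Pawr included, were not examined by position, so its absence here does not place it far from Ifng. In CD70TG against WT 2 of the 12 rose and 1 fell, with a median of 0.07. Cct2 differed by 0.21 ± 0.10 in Ifng-/- against WT, within the 0.10 to 0.34 of the 8 subunits.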

How the data were processed

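Biotin-labelled total RNA of each of 12 mice was measured on a 1-colour whole-transcript Affymetrix array. The authors made log2 values with RMA, per the submitters' processing notes, and no version or annotation was given in the sources used. Each of 28815 probe sets of the deposited table has a median of 0 over the 12 arrays within 0.000001. Why they were centred is unknown, and no label states the log base or that higher means more RNA, which is assumed from the use of RMA. Array medians ran from -0.021 to 0.027. For arrays their number limits the precision. Absolute levels are not held, so signal over background cannot be given.

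Probe sets were named from GEO's platform annotation: 21780 had 1 symbol, 1605 several and 5430 none, and 21689 were matched by Entrez identifier to RefSeq, with 0 symbols changed. Probe sets of a gene were averaged (998 of 19935 genes). The brightness class comes from the rounding step of the values (tolerance 0.05 of a step, values from 0.001 to 1.0) and holds 4377 probe sets (15.2%), 45 of 57 genes for ribosomal proteins and 1 of 1027 for olfactory receptors.

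limma 3.58.1 in R 4.3.3 (statmod 1.5.0) fitted 4 group means to 12 arrays (8 residual and 6.23 prior degrees of freedom after lmFit and eBayes), two-sided, with Benjamini-Hochberg adjustment over 19935 genes and a threshold of 0.05. The fit was tested on simulated data. The SE of the mean of the 8 genes comes from its pooled SD of 0.10 within groups (8 degrees of freedom). The labels number separate mice, and each array is a separate animal.

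The members and lists were chosen with earlier results of these data known. Named genes are the 8 members, up to 4 genes of each related list with the smallest p in CD70TG against WT, the 8 genes with the highest r to the mean of the members with and without group means, and Ifng and Cd70. Alternatives were other scalings of the arrays, the brighter class alone, the most variable probe set of a gene, a robust variance model, array weights, only the groups compared, the replicate number as a block, and leaving out each array.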

Additional observations from a re-analysis of the deposited data

Results flagged for a closer look

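The chaperone genes Hsph1, Stip1 and Hspe1 differed between the transgene effects with and without interferon-gamma by the interaction term of the limma fit, by 1.46, 0.81 and 0.77 on the log2 scale, with n = 3 in each of the 4 groups. With interferon-gamma they differed by 1.10, 0.52 and 0.73, and without it by -0.36, -0.29 and -0.04. In Ifng-/- against WT, without the transgene, they differed by 1.08, 0.57 and 0.33 (limma adjusted p = 0.0772, 0.171 and 0.263). For Hsph1 and Stip1 that is about as much as in CD70TG against WT, and WT is the control of both. The interaction also passed after centring within the brightness class, at 1.33 (adjusted p = 0.0114), 0.68 (adjusted p = 0.0287) and 0.64 (adjusted p = 0.0439). After quantile normalization it was 2.17 for Hsph1 and 0.91 for Stip1, and for Hspe1 it no longer passed (0.76, adjusted p = 0.0651). With single arrays left out the term passed in 12 of 12 fits for Hsph1 (adjusted p 0.0045 to 0.0292). It was lost for Stip1 without WT 1 or CD70TG 2 (0.0128 to 0.0634) and for Hspe1 in 7 of 12 fits (0.00436 to 0.0869). The mean of the 8 CCT subunits had an interaction of 0.39 ± 0.12 (SE), given without a test.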

How the results depend on the processing

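The mean of the 8 subunits kept its direction under every alternative run for CD70TG against WT, from 0.41 to 0.50 with any array left out, and moved to 0.31 after centring within the brightness class. With any array left out it was -0.01 to 0.12 for the transgene without interferon-gamma, 0.17 to 0.28 and -0.23 to -0.13 for the loss of interferon-gamma without and with the transgene, and 0.34 to 0.46 for the interaction (0.26 after class centring). Of 168 alternative values of the single subunits in CD70TG against WT, 162 moved by less than 1 SD or not at all, 6 by more, and 0 reversed. All 6 came from centring within the brightness class, in Tcp1, Cct2, Cct4, Cct5, Cct7 and Cct8. Many of the other alternatives could not change a difference of these group means, so their sameness shows nothing. Among these were leaving out an array of a group not compared, the robust variance model and the brighter class alone. The subunits called in that contrast, an alternative added after seeing the data, numbered 3 to 8 with an array left out. Of 288 alternatives for 14 other calls, 248 kept the call and 40 lost it.

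Counts of called genes moved more. For the transgene with interferon-gamma the count of 2179 became 1135 in the brighter class alone, 5337 with array weights and 853 to 2721 with an array left out. Without interferon-gamma the 499 became 78, 1439 and 297 to 868. For its loss without the transgene the 1 gene became 3 with quantile normalization, 15 in the brighter class, 7 with array weights, 2 with only the groups compared and 1 to 42 with an array left out. With the transgene the 282 became 163, 3519 and 136 to 365. The interaction's 377 became 2040 with array weights and 82 to 711. The brighter class tests fewer genes, and the cause of the other moves was not tested. Array weights were 4.37 for CD70TG 2, 4.24 for CD70TG*Ifng-/- 3 and 0.407 to 1.67 for the rest.

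The replicate numbers did not pair the mice: deviations of same-numbered arrays had r from -0.401 to 0.311, over 0.1 in 6 of 18 pairs, and 2 of 12 arrays were most like one of their own number. With the replicate number as a block the interaction count was 128, the interaction of Hspe1 no longer passed (limma adjusted p = 0.0671), and 6 of the 8 subunits were called in CD70TG against WT.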
